A study of Zea mays with 4 samples.

Results

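The genes described here are the named maize genes whose probe sets were bright in both lines. A probe set, the group of short probes that reads 1 transcript on the array, was taken where the platform's annotation gave it 1 gene symbol and its log2 value was over 12 on all 4 arrays. Symbols or synonyms of several families were left out by name: the aquaporins (pip, tip, nip, sip), bx, glu1, cesa, gst, rpl, rps, tub, gln, prp2, rbcS, pdk1, H1, his, BM1 and PAL. This left 124 probe sets of 97 genes, out of 1452 maize probe sets with 1 symbol for 1108 genes and 17621 maize probe sets in all. The exclusions took out 28 further bright named probe sets of 26 genes, and 637 of the 789 probe sets over log2 12 on all 4 arrays are unnamed here. The members were chosen by their measured log2 levels on these 4 arrays, so their brightness is given as a description with no test. A floor on every array also limits how far the lines can differ in these genes, so counts of differing members are descriptions too and support nothing further.

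The study set the maize lines F98908 and Cm489 side by side, in work on cell wall composition and on how digestible maize lines are. Both lines are given without any treatment, transgene or mutant allele, and each is represented by 2 Affymetrix arrays of total RNA from 21 day old plants at the 7 leaf stage. They were raised on compost at 50% humidity, with days of 16 h and nights of 8 h, and the tissue is recorded only as aerial. Both F98908 arrays carry the same extract label (213 ug), whereas the Cm489 arrays have labels of their own (177 and 170 ug). Separate plants are not stated for the arrays of either line, so p-values reflect the spread among these samples alone, and that spread may be technical.

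In a green shoot, a limited set of genes accounts for much of the messenger RNA: those for making proteins, splitting sugars, harvesting light and building the cytoskeleton. Many are called housekeeping genes because almost every cell uses them, and several serve as loading controls in other experiments. In maize leaves, photosynthesis is divided between mesophyll cells, which first fix carbon, and bundle sheath cells, which hold most of the Rubisco.

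The 4 arrays had nearly the same overall level, which the normalisation sets by forcing the same distribution on every array, so it says nothing about the lines. Over all maize probe sets the median log2 value was 6.64 and 6.66 on the F98908 arrays and 6.66 and 6.65 on the Cm489 arrays, and the brightest value was between 14.7 and 14.8. The members' medians were 13.00 and 12.98 on the F98908 arrays and 13.02 and 13.07 on the Cm489 arrays. Light harvesting genes such as the mesophyll marker Cab-m7 were bright and are among the members. Leaf markers of carbon fixation were split. The C4 marker pep1 was at 1.86 and 1.86 on the F98908 arrays and at 5.44 and 1.91 on the Cm489 arrays. The bundle sheath malic enzyme ME1 stayed near 2.99 on all 4, and the ferredoxin fdx2 lay between 3.19 and 4.05. Most of these pep1, ME1 and fdx2 values lie under log2 4, the level used to filter dim probe sets. Some other probe sets of bright genes read as low, such as an lhcb6 set at 1.44 on both F98908 arrays. A low reading of 1 probe set therefore does not show that its gene is silent. Higher values were read for the mesophyll gene mdh6, at 9.93 and 9.47 in F98908 and at 8.90 and 9.23 in Cm489. The bundle sheath gene Rca was at 7.25 and 7.22 in F98908 and at 6.59 and 7.80 in Cm489. The Rubisco small subunit probe set had 11.77 and 11.53 in F98908 and 11.95 and 12.28 in Cm489. The meristem gene kn1 was at 10.62 and 10.65 in F98908 and at 10.77 and 11.51 in Cm489, whereas lg3, of the same gene class, was at 8.94 and 8.70 in F98908 and at 7.18 and 8.48 in Cm489. The kernel storage gene zp27 stayed between 4.42 and 5.02, and of the probe sets named GLB1, another kernel storage gene, one lay between 7.30 and 8.94 and the other between 2.46 and 2.49. The root gene zrp4 was at 3.14 and 2.48 in F98908 and at 10.99 and 10.78 in Cm489. The part of tissue or cell makeup in the members' values was not tested, and in such bulk RNA fewer cells of a type cannot be told apart from less RNA per cell.

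Of the 97 genes, 78 could be placed in 11 groups by what their products do, and 19 were left without a group, among them 9 known only by a locus number. The largest groups were protein synthesis, with 15 genes on 20 probe sets, and sugar metabolism, with 12 genes on 13 probe sets. Group sizes describe the members only, after the exclusions by name and without the 637 unnamed bright probe sets. Folding and secretion had 8 genes, photosynthesis 7, redox, vitamin and stress functions 7, chromatin 6, and 5 each were in proteolysis, in signalling and in the wall, lipid and glycine rich proteins. The cytoskeleton had 4 genes, and so did energy and membrane transport. Among the proteolysis genes, cys2 was placed by its symbol alone, and the photosynthesis genes include the ferredoxins FDX6 and fdx3, which are not limited to green tissue. The groups were made with the values known. Probes differ in how strongly they bind, so a brighter probe set is not more transcript, and levels are compared only between lines.

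The lines were close in these genes. Limma called 2 of the 124 member probe sets (1.61%) at an adjusted p under 0.05, 0 higher and 2 lower in F98908, whereas it called 15.3% of all 11263 tested probe sets, 7.27% higher and 8.02% lower. At an unadjusted p under 0.05 the members had 12, 7 higher and 5 lower (9.68%), against 32.4% of all tested. The count of 2 was 7 with an intensity trend and a robust prior and 7 with no filter on dim probe sets, where PRO5, GPC1, HINT, OBF1, dad1, lim1, LOC541942 and LOC542610 gained a call in 1 or both, and it was 0 with the replicate block. The sign was evenly split, with 62 positive and 62 negative differences and a median of -0.003 log2, against -0.03 over all tested probe sets.

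**Figure D1:**
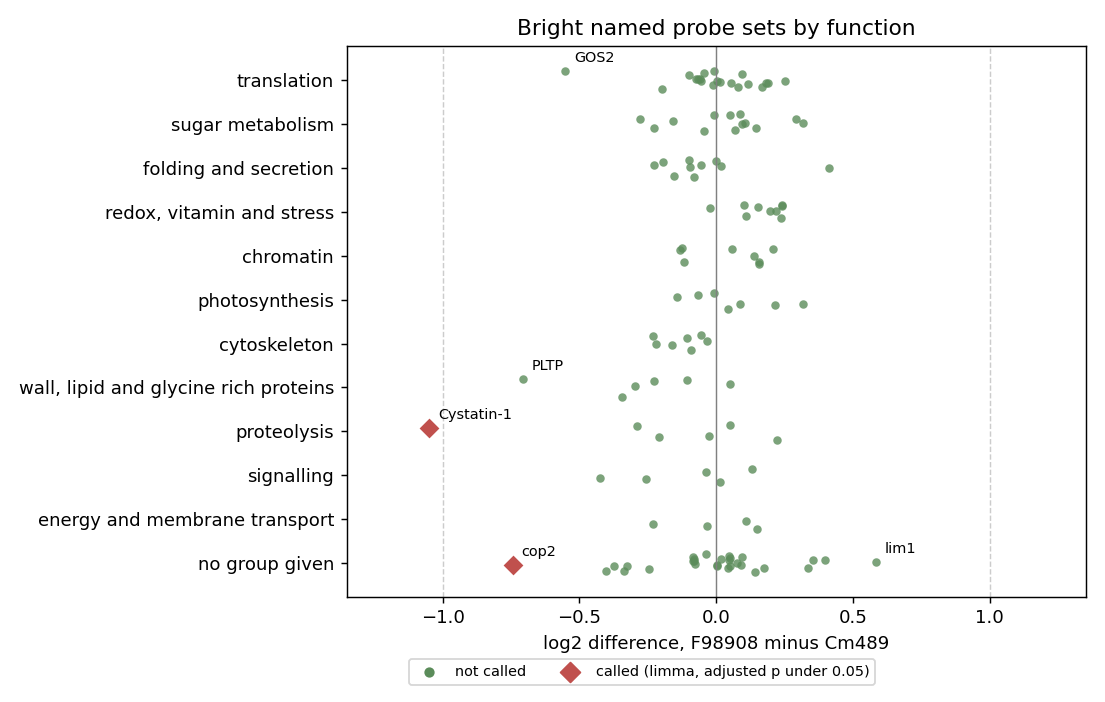
Each point is 1 member probe set, placed by its log2 difference (F98908 minus Cm489, horizontal axis) within its function group (vertical axis). Diamonds mark the 2 probe sets called by limma, Cystatin-1 at -1.05 and cop2 at -0.74, and dashed lines mark a difference of 1 log2 unit in each direction. Most points lie within 0.25 of 0, and all 7 cytoskeleton probe sets lie left of 0.

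Genes of protein synthesis formed the largest group and showed no call. Their 20 probe sets ran from 12.17 to 14.41, with differences from -0.55 to 0.25 and a median of -0.002, 10 positive and 10 negative (12 and 8 with arrays centred on their medians). The smallest adjusted p in limma was 0.215, and 0 had an unadjusted p under 0.05. TCTP, the translationally controlled tumour protein, was at 14.40 and 14.33 on the F98908 arrays, against 14.33 and 14.41 on the Cm489 arrays. The arrays of the lines interleaved, and the difference was -0.01 ± 0.10 SE. Elongation factor 1 alpha, which brings aminoacyl tRNA to the ribosome, was read by EF1A, elfa2, elfa3 and elfa5, whose 6 probe sets differed by -0.20 to -0.06. The near-identical copies of this family can share probes, and all but the elfa5 set are of types that can bind more than 1 transcript, so these values are not independent.

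The acidic stalk proteins of the ribosome, which help factors bind to it, had small positive differences. RP-P0, rpp2a-2, rpp2a-4, rpp2b and rpp3 had differences between 0.004 and 0.19 on 6 probe sets, none called, and they stayed positive under both scaling alternatives, arrays quantile normalised again and arrays centred on their medians. The stalk gene rpp3 was at 13.25 and 13.18 in F98908 and at 13.27 and 13.16 in Cm489 on 1 probe set, a difference of 0.004, and it was 0.08 higher on its other. The initiation helicase eIF-4A had 12.83 and 12.72 in F98908 and 12.47 and 12.57 in Cm489, the widest positive difference of the group, and its arrays did not overlap (0.25 ± 0.11 SE, adjusted p = 0.215). GOS2, an initiation factor, had 12.84 and 12.49 in F98908 and 12.88 and 13.56 in Cm489. Its lowest Cm489 array stood only just above the highest F98908 array, and the difference of -0.55 ± 0.29 SE was not called (adjusted p = 0.292). Without Cm489 array 1 it was -0.89, and without Cm489 array 2 it was -0.21.

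Sugar metabolism held enzymes of sucrose breakdown and glycolysis. Its 13 probe sets ran from 12.06 to 14.54, with differences of -0.28 to 0.32, 8 positive and 5 negative, none called (smallest adjusted p = 0.145, 3 at an unadjusted p under 0.05). Sucrose synthase, which cleaves sucrose for use in cell walls and glycolysis, was read by sus1 at 14.29 and 14.38 in F98908 and at 14.54 and 14.45 in Cm489, so the Cm489 arrays were the higher ones without overlap (-0.16 ± 0.11 SE, adjusted p = 0.379). The 4 genes for cytosolic glyceraldehyde 3-phosphate dehydrogenase, a glycolytic enzyme, did not share a sign. GPC1 differed by -0.28 (adjusted p = 0.145), gpc3 by -0.01 (positive under both scaling alternatives), gpc2 by 0.07 and gpc4 by 0.32 (adjusted p = 0.154). Both enolase genes were positive, eno1 by 0.29 (adjusted p = 0.154) and eno2 by 0.11, and the aldolase ald1 by 0.05. The fructokinase gene frk2 differed by -0.23, the alcohol dehydrogenase adh1 by 0.09, the malate dehydrogenase mdh5 by -0.04 and the pyrophosphatase IPP by 0.14 and 0.10 on its probe sets.

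Photosynthesis had 7 probe sets between 12.25 and 14.29, with differences of -0.14 to 0.32 and a smallest adjusted p of 0.276. Cab-m7, a chlorophyll a/b binding protein that gathers light for the photosystems, was at 14.29 and 14.27 in F98908, against 14.16 and 14.22 in Cm489, higher on both F98908 arrays (0.09 ± 0.10 SE, adjusted p = 0.588). The photosystem II antenna genes lhcb5 and lhcb6 differed by -0.06 and -0.01, and lhcb6 was at 13.14 and 13.00 in F98908 and at 12.95 and 13.19 in Cm489, with each line spread wider than the lines differed. The photosystem I subunit genes psaH and psaN had differences of 0.32 ± 0.16 SE and 0.21 ± 0.25 SE. For psaN the F98908 arrays were at 12.87 and 12.66 and the Cm489 arrays at 12.25 and 12.85, so the Cm489 arrays were 0.60 apart and the lines overlapped. FDX6 and fdx3, ferredoxins that carry electrons in plastids and are not limited to green tissue, differed by 0.04 and -0.14. They were placed here as ferredoxins, and fdx3 sets the lowest difference of the group.

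The cytoskeleton group had a negative difference on 7 of 7 probe sets, from -0.23 to -0.03, also under both scaling alternatives, and 0 were called (0 also at an unadjusted p under 0.05). On 5 of them both Cm489 arrays were above both F98908 arrays, against 35.4% of all tested probe sets. ADF3, an actin depolymerizing factor that cuts actin filaments, was at 14.14 and 14.10 in F98908 and at 14.18 and 14.28 in Cm489 (-0.11 ± 0.10 SE, adjusted p = 0.523), and its other 2 member probe sets overlapped between lines. The alpha tubulin gene tua4 differed by -0.23 and -0.16, and the profilin genes PRO4 and PRO5, whose products bind actin monomers, by -0.09 and -0.22 (adjusted p = 0.557 and 0.214). Alpha tubulins with a synonym that starts with tub were left out by name, and of these TUA1, tua5 and tua6 differed by -0.19, -0.52 and -0.47 (adjusted p = 0.287, 0.100 and 0.0684), also without a call. The 7 probe sets stand for 4 genes, so they are not 7 separate measurements.

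Redox, vitamin and stress genes had mostly positive differences, on 8 of 9 probe sets (9 of 9 with arrays centred on their medians), from -0.02 to 0.24, and 0 called (smallest adjusted p = 0.218, 0 at an unadjusted p under 0.05). Both F98908 arrays were above both Cm489 arrays on 7 of the 9, against 28.5% of all tested probe sets. Sod4A, a copper zinc superoxide dismutase that removes superoxide, was at 13.70 and 13.66 in F98908 and at 13.48 and 13.66 in Cm489, where the higher Cm489 array fell just short of the lower F98908 array (0.11 ± 0.11 SE, adjusted p = 0.565). The manganese superoxide dismutase sod3 differed by 0.24, the thioredoxin trxh1 by 0.24, the stress and ripening gene asr1 by 0.24 and the glyoxalase glx1, which clears methylglyoxal, by 0.22, 0.20 and 0.15 on its 3 member probe sets. The thiamine thiazole synthase genes thi1 and thi2, of vitamin B1 synthesis, were at 0.10 and -0.02.

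Proteolysis held the largest difference of all members. Cystatin-1, an inhibitor of cysteine proteinases, was at 12.56 and 12.48 on the F98908 arrays, against 13.54 and 13.60 on the Cm489 arrays. The lines did not overlap, and the arrays of a line lay within 0.08 of each other. Cystatin-1 fell by 1.05 ± 0.10 SE on the log2 scale, 2.07-fold (limma, adjusted p = 0.0114, 95% interval -1.34 to -0.76). It lost the call with the F98908 arrays averaged into 1 sample (adjusted p = 0.117), with the array number as a replicate block (0.0669), without F98908 array 1 (0.110), without F98908 array 2 (0.117) and without Cm489 array 2 (0.0507), with a range of 0.00440 to 0.117 over all alternatives, and kept its sign in each. A second Cystatin-1 probe set, which was not a member, went the opposite way and is described with the other probe sets of member genes. Over the group 4 of 6 probe sets were negative. Of ccp1 and ccp2, genes of cysteine proteinases, a class such inhibitors act on, neither was called. The ccp1 set had 13.63 and 13.45 in F98908 and 13.38 and 13.75 in Cm489, inside the Cm489 range (-0.03 ± 0.17 SE), and ccp2 differed by -0.29. The cys2 set differed by -0.21, also without a call, but this gene was placed here by its symbol alone and its product is uncertain. The ubiquitin conjugating enzyme ubc7, which marks proteins for breakdown, differed by 0.05 and 0.22 on its 2 member probe sets.

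The other called gene, cop2, was at 12.20 and 12.18 in F98908 and at 12.88 and 12.99 in Cm489. Its product is not described in the tables used here. Both Cm489 arrays were higher, and cop2 fell by 0.74 ± 0.10 SE on the log2 scale, 1.67-fold (limma, adjusted p = 0.0251, 95% interval -1.03 to -0.45). It lost the call with F98908 as 1 sample (adjusted p = 0.189), with the replicate block (0.118) and without any 1 of the 4 arrays (0.0559 to 0.184), over a full range of 0.0120 to 0.189, with the same sign throughout.

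In the wall, lipid and glycine rich group 5 of 6 probe sets were negative, from -0.71 to 0.05, and 0 were called (0 at an unadjusted p under 0.05). PLTP, a phospholipid transfer protein, had 12.11 and 12.28 in F98908 and 13.27 and 12.54 in Cm489. The Cm489 arrays were both higher but 0.72 apart, and the difference of -0.71 ± 0.29 SE was not called (adjusted p = 0.195). Without Cm489 array 1 it was -0.34, and without Cm489 array 2 it was -1.07 (adjusted p = 0.0639). The COBRA like gene Bk2L3, of a family that orients cellulose, differed by -0.34 and -0.30 on its probe sets (adjusted p = 0.174 and 0.254), and RGP, a reversibly glycosylated protein of wall polysaccharide synthesis, by -0.23. The glycine rich gene grp1 was at 14.24 and 14.21 in F98908 and at 14.26 and 14.40 in Cm489 (-0.11 ± 0.11 SE), with Cm489 above on both arrays. GRP, another glycine rich protein gene, differed by 0.05.

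Folding and secretion had 10 probe sets with differences of -0.23 to 0.41, 7 of them negative and none called (1 at an unadjusted p under 0.05). The oligosaccharyltransferase subunit gene dad1, of protein glycosylation, came nearest to a call there, at 12.53 and 12.55 in F98908 and 12.15 and 12.10 in Cm489. Its F98908 arrays were higher without overlap (0.41 ± 0.10 SE, adjusted p = 0.0723). It was called with an intensity trend and a robust prior (0.0363) and with no filter on dim probe sets (0.0332), within a range of 0.0332 to 0.337. The chaperone gene hsp70-5 was at 12.71 and 12.75 in F98908 and at 12.77 and 12.69 in Cm489, a difference of 0.0009, the smallest among all members, which was -0.03 with arrays quantile normalised again. The calreticulin gene crt2, a calcium binding chaperone of the endoplasmic reticulum, was at 13.17 and 13.21 in F98908 and at 13.50 and 13.04 in Cm489, so that its Cm489 arrays enclosed the F98908 ones. The secretory genes arf1 and copz2 differed by -0.23 and -0.10, hsp70-4 by -0.06, PDIL1-1, a protein disulfide isomerase, by -0.19 and hsbp1, which binds heat shock factors, by -0.15.

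Chromatin genes gave differences of -0.13 to 0.21 on 8 probe sets, none called (smallest adjusted p = 0.426). MNB1b, a high mobility group protein that bends DNA, was at 14.03 and 14.15 in F98908 and at 14.24 and 14.18 in Cm489, just above F98908 on both arrays (-0.12 ± 0.11 SE). The linker histone gene hon101 was at 13.60 and 13.79 in F98908 and at 13.91 and 13.07 in Cm489. Its Cm489 arrays were 0.84 apart, the widest gap within a line among the members, and the interval of its difference ran from -0.72 to 1.14. The histone deacetylase gene hdt102 differed by 0.16, and the high mobility group gene hmg2 by 0.16 and 0.06 on its probe sets. The nucleosome assembly factor genes nfa101 and nfc102 were at -0.13 and 0.14.

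Signalling had 5 probe sets with differences of -0.43 to 0.13, and energy and membrane transport had 4 with -0.23 to 0.15, none called (1 and 0 at an unadjusted p under 0.05). OBF1, a bZIP transcription factor, had 12.90 and 12.99 in F98908 and 13.32 and 13.41 in Cm489. The arrays did not overlap, yet the difference of -0.43 ± 0.10 SE missed the threshold (adjusted p = 0.0789). It was called with an intensity trend and a robust prior (0.0383), within a range of 0.0383 to 0.367 over the alternatives. Of the calmodulins, which sense calcium, CaM1 differed by 0.13 and CaM2 by 0.01, the auxin binding protein gene abp1 by -0.26 and the MAP kinase kinase mek1 by -0.04. The proton pumping pyrophosphatase vpp3 of the vacuole was at 13.43 and 13.43 in F98908 and at 13.51 and 13.81 in Cm489 (-0.23 ± 0.15 SE, adjusted p = 0.362). Cm489 was higher on both arrays, and its own arrays differed by 0.31. The ATP synthase subunit gene ATPB differed by 0.15, and the mitochondrial nucleotide carriers ANT1 and ANT2 by -0.03 and 0.11.

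The 29 probe sets with no group given had differences of -0.74 to 0.58, 17 positive and 12 negative. Among them lim1, a LIM domain protein gene, had the largest positive difference of all members. It was at 12.97 and 12.86 in F98908 and at 12.21 and 12.45 in Cm489, without overlap (0.58 ± 0.13 SE, adjusted p = 0.0675). Limma with an intensity trend and a robust prior called it (adjusted p = 0.0472), within a range of 0.0472 to 0.321 over the alternatives. PRP was at 14.22 and 13.78 in F98908 and at 14.23 and 14.57 in Cm489 on its brighter set, and its F98908 arrays were the furthest apart of any member, by 0.44. HINT differed by -0.34 (adjusted p = 0.107), sam2 by -0.33 (0.179) and gar2 by 0.35 (0.139). LOC542641 was at 14.43 and 14.41 in F98908 and at 14.42 and 14.32 in Cm489, and LOC542458 had a set at 13.11 and 13.00 in F98908 and at 13.03 and 13.07 in Cm489, both with arrays that overlapped between lines. CNX, at 12.13 and 12.22 in F98908 and at 12.31 and 12.03 in Cm489, differed by 0.004.

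**Figure D2:**
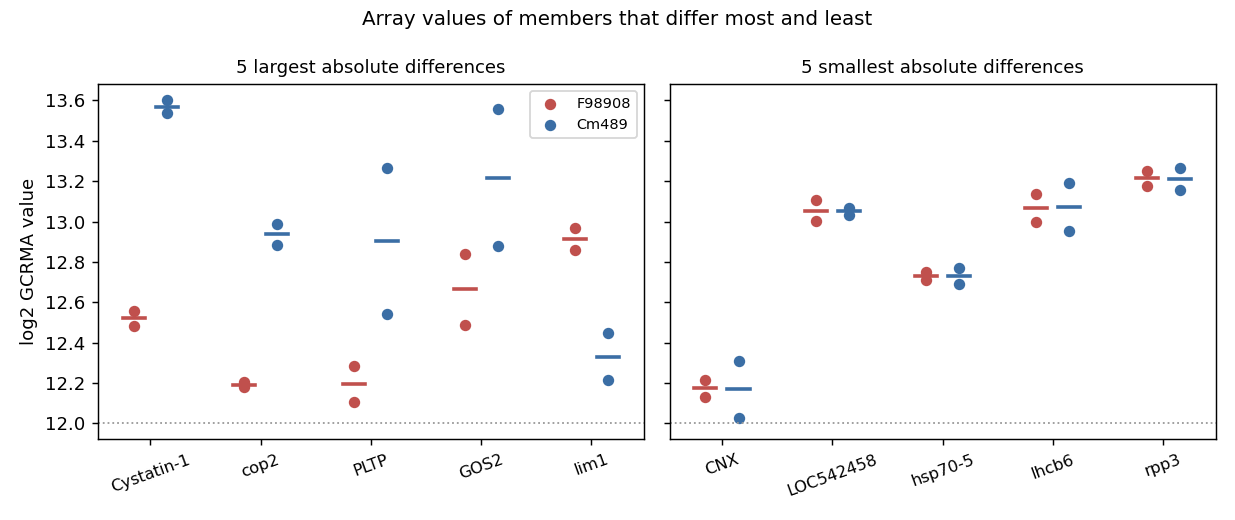
Log2 GCRMA values on each array (points, F98908 left of Cm489 for each gene) with the mean of each line (bars), for the 5 member probe sets with the largest absolute difference (left) and the 5 with the smallest (right). The dotted line marks log2 12. For Cystatin-1 and cop2 the arrays of a line sit close together, whereas the Cm489 arrays of PLTP and GOS2 lie 0.72 and 0.68 apart.

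How close the lines were can be stated in log2 units. Over the members the median absolute difference between lines was 0.110, and 101 of 124 differed by less than 0.25. The 95% interval of the difference lay within 1 log2 unit, a 2-fold change, for 118 of the 124, and within 0.5 for 73. The 6 whose interval reached past 1 were Cystatin-1, cop2, PLTP, GOS2, hon101 and PRP. The median SE was 0.107 and the smallest 0.094, and the smallest absolute difference that limma called among all tested probe sets was 0.506 (1.42-fold). Smaller differences were called in some alternatives, down to 0.305 with an intensity trend and a robust prior and 0.173 with no filter on dim probe sets, so a member without a call is not shown to be equal in the lines.

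Array against array, the members differed somewhat more between lines than between the arrays of Cm489. The median absolute difference between arrays of a line was 0.056 in F98908 and 0.103 in Cm489, and the Cm489 arrays were the further apart on 85 of the 124 probe sets. The gap between the Cm489 arrays exceeded the difference between the lines on 62 probe sets, and that between the F98908 arrays did so on 31. Over all 11263 tested probe sets, the counts matching 85, 62 and 31 were 7167, 4637 and 3178, so such gaps also occurred outside the members. Array by array, the medians between lines ran from 0.111 to 0.148. Over all tested probe sets the median was 0.288 between line means, 0.131 within F98908 and 0.206 within Cm489. The arrays of the lines did not overlap on 80 member probe sets (64.5%), 34 above and 46 below in F98908, near the 63.9% of all tested.

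Other bright probe sets gave similar sizes. The 665 other probe sets over log2 12 on all 4 arrays had a median absolute difference of 0.126 and 1.95% called (5 higher and 8 lower). They passed the same floor on every array, which limits their differences as well. Of these 665, the 28 taken out by name had a median of 0.251, and 4 were called (14.3%), 1 higher and 3 lower. The share called was lower at each higher level: 27.8% at a mean of 4 to 6, 18.2% at 6 to 8, 12.1% at 8 to 10, 9.22% at 10 to 12 and 3.97% over 12. A probe set with a low mean could pass the filter on its brighter line alone, and the spread within lines was also wider at low levels. The part of either in these shares was not tested.

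**Figure D3:**
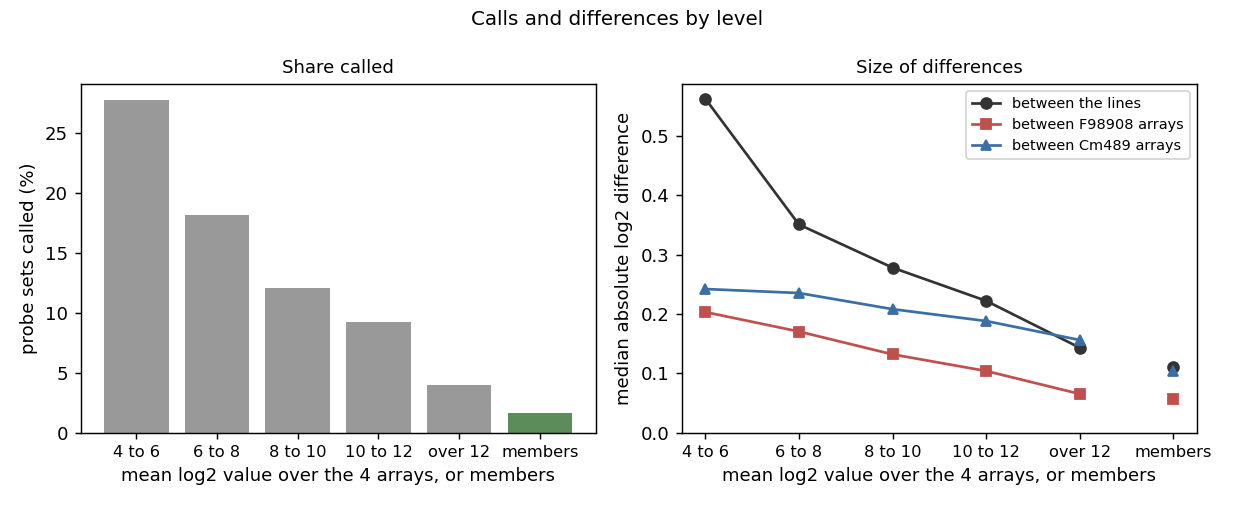
Left, the share of probe sets called by limma (percent) in bands of the mean log2 value over the 4 arrays (grey) and for the members (green, 1.61%). Right, the median absolute log2 difference between the line means (circles), the F98908 arrays (squares) and the Cm489 arrays (triangles) in the same bands. The members are at the right, at 0.110, 0.056 and 0.103.

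Genes with more than 1 probe set show how far these values depend on the probes. Of 21 genes with several member probe sets, 18 had all differences of 1 sign, and the gap between the sets of a gene ran from 0.0007 for LOC542441 to 0.38 for LOC541942. The exceptions were tif-4A3, an RNA helicase of the eIF4A family, TCTP and LOC542458. Other probe sets of the same genes, mostly dimmer, varied more. Of the 48 non-member probe sets of 27 member genes, 20 were under the filter and 28 were tested, and limma called 5 of these, 3 higher and 2 lower (17.9%, near the 15.3% of all tested). Their median absolute difference was 0.220, 15 of the 28 differed by less than 0.25 and 6 by more than 1, and those 6 are among the sets given next.

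The second Cystatin-1 set was at 11.79 and 11.84 in F98908 and at 9.36 and 7.86 in Cm489, 3.20 ± 0.55 SE higher (adjusted p = 0.0404), opposite in sign to the member set. A second PLTP set was likewise opposite, at 10.91 and 11.33 in F98908 and at 5.92 and 3.72 in Cm489 (6.30 ± 0.82 SE, adjusted p = 0.0221). The second EF1A set had 12.42 and 12.98 in F98908 and 9.28 and 10.68 in Cm489 (2.72 ± 0.55 SE, adjusted p = 0.0550), beside -0.06 on the member set. In each of these 3 genes the F98908 arrays were the higher ones on the dimmer set and the lower ones on the member set.

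GPC1 was lower on its dim set, at 5.32 and 5.37 in F98908 and at 7.24 and 7.19 in Cm489 (-1.87 ± 0.10 SE, adjusted p = 0.00256), and so was gpc3, by 1.18 ± 0.13 SE (adjusted p = 0.0165). The second enolase set of eno1 was higher, at 12.72 and 12.77 in F98908 and at 11.94 and 12.09 in Cm489 (0.73 ± 0.11 SE, adjusted p = 0.0306), the same sign as its member set. Single arrays decided other values. A second asr1 set had 13.01 and 12.55 in F98908 but 2.33 and 11.13 in Cm489 (adjusted p = 0.291), and a further MNB1b set had 13.48 and 13.53 in F98908 and 14.09 and 11.89 in Cm489.

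**Figure D4:**
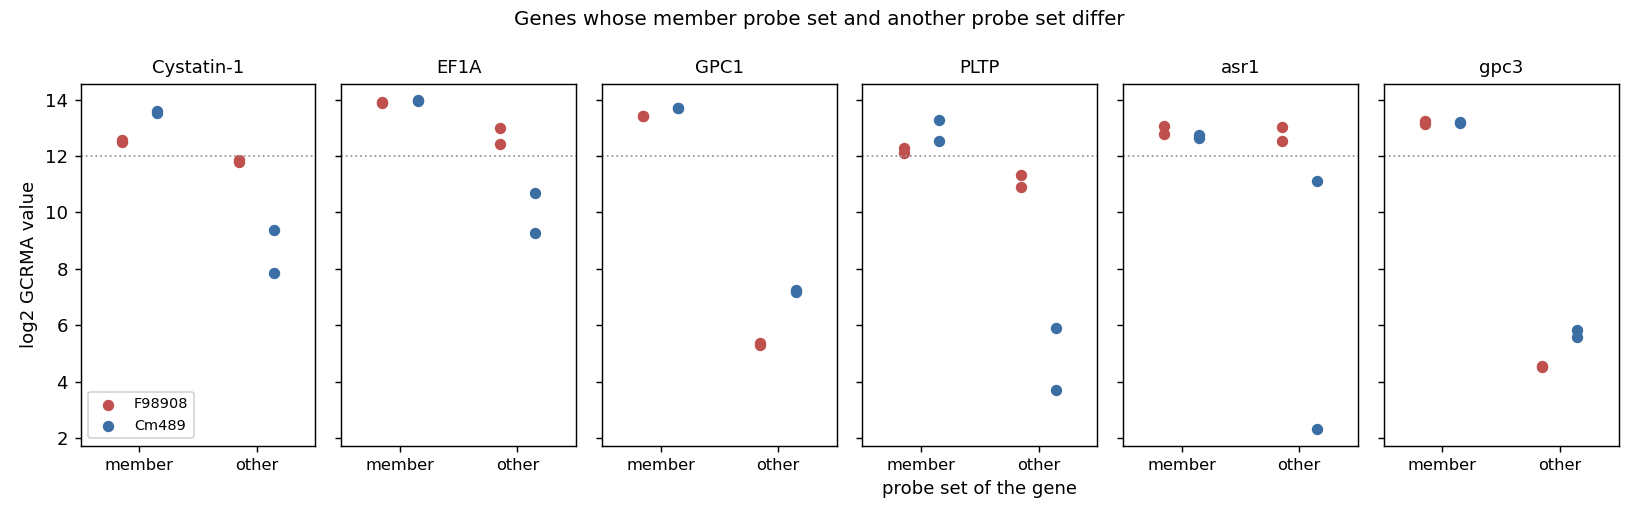
Log2 GCRMA values on each array of F98908 (left of each pair) and Cm489 for the member probe set and another probe set of the 6 genes whose other set differed by more than 1 log2 unit. The dotted line marks log2 12. On the member set the lines lie close together in all 6 genes except Cystatin-1 and PLTP, and on the other set they lie apart, with asr1 resting on 1 Cm489 array at 2.33.

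Values on the 2 sides of the threshold were close. Just inside it were nfc102, PDIL1-1, CNX, hmg2 and hsbp1, whose lowest arrays were between 12.01 and 12.05. The values of nfc102 were 12.16 and 12.23 in F98908 and 12.10 and 12.01 in Cm489, and those of PDIL1-1 were 12.20 and 12.02 in F98908 and 12.32 and 12.28 in Cm489. The hmg2 set had 12.37 and 12.44 in F98908 and 12.47 and 12.03 in Cm489, and hsbp1 had 12.05 and 12.05 in F98908 and 12.29 and 12.12 in Cm489. Just outside were vdac1b, a second CNX set, the second eno1 set, Lhcb5-2 and MZPPT1, with lowest arrays between 11.92 and 11.98. The vdac1b set, for a porin of the outer mitochondrial membrane, had 12.12 and 12.18 in F98908 and 12.06 and 11.98 in Cm489. The second CNX set had 11.97 and 12.12 in F98908 and 12.19 and 11.97 in Cm489, and MZPPT1 had 12.05 and 12.05 in F98908 and 12.06 and 11.92 in Cm489. The Lhcb5-2 set, for a photosystem II antenna protein, was at 12.99 and 12.97 in F98908 and at 11.94 and 12.30 in Cm489. It missed the threshold on 1 Cm489 array, and was 0.86 ± 0.16 SE higher in F98908 (adjusted p = 0.0468). In all, 19 named probe sets that were neither members nor left out by name had a mean over 12, and the 4 called among them, eno1, HDT1, Lhcb5-2 and dehydrin3, were all higher in F98908. Dehydrin3, of a family made in drying cells, had 13.30 and 13.26 in F98908 and 12.04 and 11.86 in Cm489 (1.33 ± 0.11 SE, adjusted p = 0.00852). The expansin expa1 had a difference of 1.18 ± 0.40 SE (adjusted p = 0.148). A rule that asks for brightness in each line keeps such genes out.

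Wider gene lists, matched by symbol with 1 probe set per gene, put the members beside other genes whose symbols matched. A symbol can match genes outside the pathway that a list is named for, so list sizes count matched symbols. Of 11 measured translation factor genes 7 were members, and 0 were called over the list, members or not (0 at an unadjusted p under 0.05), with a median difference of -0.06. Of 12 measured photosystem and light harvesting genes 5 were members. Here psad1, a photosystem I subunit, rose by 1.57 ± 0.17 SE (adjusted p = 0.0156) and Lhcb5-2 rose by 0.86, while hcf106, of thylakoid protein import, fell by 1.05 ± 0.20 SE (adjusted p = 0.0490), and none of the 3 is a member. Of 17 genes measured for the glycolysis and fermentation list 8 were members, and the 2 called, adh2 and aldh2, are dimmer genes that fell by 2.02 and 2.46. That list also took in pDCT1, pDCT2, ALDH10A5 and ALDH10A9 by symbol, which were not checked as genes of that pathway and were not called. These calls sat among the genes that were not bright in both lines.

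In the list for ubiquitin and proteolysis, 5 of 12 measured genes were members, cys2 by its symbol alone. Cystatin-1 was lower on its member set, the 1 used for the list, but its second set was 3.20 ± 0.55 SE higher (limma, adjusted p = 0.0404). Another cystatin, cpi2, fell by 3.30 ± 0.30 SE (adjusted p = 0.00996), whereas cc7, listed as cystatin, differed by -0.70 without a call (adjusted p = 0.0797). The legumain like protease see2a fell by 0.91 ± 0.17 SE (adjusted p = 0.0488), while pco131778b, listed as see2b, rose by 1.56 ± 0.21 SE (adjusted p = 0.0234). Chaperones had 4 members among 22 measured genes, with 1 called, the small heat shock gene hsp22, higher in F98908. The chaperone list caught BCH2 through its synonym CrtR-B1, and this gene was not checked as a chaperone. Redox genes had 3 members among 11, with 2 called, PER42 and trm1, both higher. Membrane transport had 3 members among 8, with 1 called, the proton pump gene mha4, which rose by 0.80 ± 0.11 SE (adjusted p = 0.0229). Over all 817 measured named genes, limma called 58 higher and 62 lower by that probe set.

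The defence and wounding list had 0 members among 9 measured genes, and 4 were called, against 15.3% of all tested probe sets. The called genes aos1, lox3, opr5 and opr7 were lower, with differences of -1.07, -2.77, -5.13 and -1.17, whereas PR-5, wip1 and chitinase had positive differences of 4.85, 4.33 and 0.98 without a call. The cytoskeleton list had 8 members among 14 and 0 called (3 at an unadjusted p under 0.05, namely tua5, tua6 and abp4). Its symbols also caught genes outside the cytoskeleton, the auxin binding gene abp1 and 5 ribosomal stalk genes, 3 of the stalk genes being members. The gene abp4 was caught by the same symbol pattern as abp1. The list for the C4 and Calvin cycles had 5 members among 15, namely rcalm, mdh5, GPC1, gpc2 and gpc3, all matched by symbol alone. Of these, the glycolytic gpc genes and mdh5, a cytosolic malate dehydrogenase gene, were grouped above under sugar metabolism. The 1 call of this list, G3PD, listed also as GAPA of the Calvin cycle, rose by 0.80 ± 0.12 SE (adjusted p = 0.0325). Photosynthetic electron transport had 3 members among 5, all matched by symbol alone. They were FDX6 and fdx3, ferredoxins not limited to green tissue, and ATPB, grouped above with energy and membrane transport. RNA binding and glycine rich proteins had 2 among 4, the small GTPase, 14-3-3 and calmodulin list 3 among 23, and the lipid list 1 among 5. Each of these lists had 0 called, and in the order given they had 1, 0, 9 and 2 genes at an unadjusted p under 0.05. The 23 include genes matched by GRF symbols, such as GRF2 and GRF5, whose products were not checked as 14-3-3 proteins. The list for methyl transfer and amino acids had 1 member among 10 and 1 call, higher, and that for sucrose and starch had 1 member among 10 and 3 calls, 1 higher and 2 lower. Agpat4, called lower in the sucrose and starch list, was matched by its symbol alone and was not checked as a gene of that pathway.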

How the data were processed

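Transcript levels were measured on 4 Affymetrix maize arrays, 2 of F98908 and 2 of Cm489, grouped by the labels. The deposited values are log2 values, 1 per probe set and array, made by the authors with GCRMA per the submitters' processing notes, which name no version. The method uses probe sequence to correct background, forces the same distribution on every array and then condenses each probe set to 1 value, so total output cannot differ between lines. Scanner files were not used here, and the number of arrays limits the precision.

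Of 17734 probe sets, 113 array controls were left out. The 11263 with a log2 value over 4 on at least 2 arrays entered a fit in limma 3.58.1 under R 4.3.3 (lmFit, eBayes, F98908 minus Cm489, two-sided, Benjamini-Hochberg over all 11263, threshold 0.05), a fit tested on simulated data. Residual and prior degrees of freedom were 2 and 1.79, and intervals are at 95%. An exact permutation test of 2 against 2 arrays cannot go below 0.333. Symbols came from the platform's annotation and from RefSeq's table of Zm-B73-REFERENCE-NAM-5.0, which held 90 of the 97 member genes, and no positions are given because no build is named for the values.

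The members, function groups and gene lists were chosen with earlier results of these data known. Of 17 lists, 16 matched a gene, and that for photorespiration did not. Values on all 4 arrays were to be given for called members, the 5 largest and 5 smallest differences, the 5 probe sets on each side of the threshold and the brightest set of each group, while the rest were to be given by range. Other members with 4 values in the text, such as rpp3, eIF-4A, hon101 and the other probe sets of member genes, were chosen after their values were seen. Alternatives covered the filter, scaling, prior, probe set types, threshold, a replicate block, each array left out and the F98908 arrays as 1 sample.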

Additional observations from a re-analysis of the deposited data

How the results depend on the processing

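Limma's count over all tested probe sets was 1722. It was 418 with the F98908 arrays as 1 sample, 1130 with a mean over log2 6, 780 with a replicate block and 433 to 1079 with each array left out in turn. The count of members called was 2. It was 0 with F98908 as 1 sample, 0 with a replicate block and 0 to 1 with each array left out, where Cystatin-1 was called without Cm489 array 1. It was 7 with an intensity trend and a robust prior (4 higher, 3 lower) and 7 with no filter on dim probe sets (2 higher, 5 lower). A threshold 0.5 log2 units lower on all 4 arrays (162 probe sets) gave 6, a mean over 12 (143) also gave 6, and a threshold 0.5 higher (90) gave 0. With any of these rules the median absolute difference of the members stayed between 0.107 and 0.134. Fewer samples set the spread with an array left out or F98908 as 1 sample, and the cause of the other shifts was not tested.

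With the replicate block, Cystatin-1 had an adjusted p of 0.0669 and cop2 one of 0.118, and both were called in the alternatives that changed only the scaling, the filter or the prior. The labels' array numbers give no sign of a shared plant or day, and the differences between array 1 and array 2 correlated at -0.365 between the lines over the tested probe sets and -0.544 over the members. A block that crosses the numbers, chosen after seeing the data, gave 1862 calls over all and 2 members. Cystatin-1, cop2, lim1, PLTP and GOS2 kept their sign in each alternative run. Of the 124 members 4 took the other sign with arrays quantile normalised again and 6 with arrays centred on their medians, all uncalled and within 0.03 of 0. Over all tested probe sets the smallest difference called was 0.506 log2 in the fit as reported, 0.305 with the trend and robust prior, 0.173 with no filter on dim probe sets and 1.23 with the replicate block.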
